A study of Caenorhabditis elegans with 14 samples.

Results

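The peaks described here are those on the arms of chromosomes II, III, IV and V in a crosslinking study of the translation initiation factor EIF-3.G in Caenorhabditis elegans. A listed peak belonged to the arms when its midpoint, in build ce10, lay outside the chromosome centre, whatever its strand or strength. The centres ran from 4.88 to 12.02 Mb on II, from 3.72 to 10.34 Mb on III, from 3.90 to 12.97 Mb on IV and from 5.90 to 16.55 Mb on V. The 7 deposited lists held 162556 peaks, of which 41860, or 25.8%, were arm peaks, and 68668 lay in the centres of the same chromosomes.

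The assay was single-end enhanced CLIP, in which ultraviolet light links RNA to protein, the protein is precipitated, and the attached RNA is sequenced beside an input library. EIF-3.G carried a 3xFLAG tag, was expressed from the unc-17β promoter, which drives expression in cholinergic motor neurons, and was precipitated from mixed-stage worms that had received UV-B at 3 kJ/m2. There were 2 CLIP libraries for each of 3 tagged forms and 1 for worms with no transgene, each with its own input, 14 samples in all. The intact form, EIF-3.G(+), was transgene juSi364 in worms carrying acr-2(n2420), strain CZ26494. The form with the C130Y substitution was juSi365 in worms carrying eif-3.G(ju807) and acr-2(n2420), strain CZ26565. The form lacking the RNA recognition motif, ∆RRM, was juSi368 in acr-2(n2420) worms, strain CZ26623. The worms with no transgene were wild type N2 and carried neither allele, so transgene and background changed together in that comparison, as they did between C130Y and (+). The source label of that library names an IgG control and its antibody label names anti-FLAG. The labels do not say whether replicates were separate cultures, so the p-values below measure only the spread between libraries, which may be technical.

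As background, eIF3 is a large complex that helps the small ribosomal subunit find the start of an mRNA, and its g subunit binds RNA through an RNA recognition motif and has a zinc finger near its amino end. The autosomes of this worm are divided into a centre and a pair of arms. Centres are gene-dense, recombine little and hold many of the highly expressed and essential genes, whereas arms recombine more, hold more repeats and more heterochromatin marks, and carry many younger gene families.

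Arm peaks in a library were fewer per length of chromosome than centre peaks. Between the outermost listed peaks the arms spanned 33.9 Mb and the centres 33.5 Mb. The (+) libraries listed 8940 and 6674 arm peaks, the C130Y libraries 6947 and 9552, the ∆RRM libraries 2626 and 5310, and the library with no transgene 1811. In (+) replicate 1 this came to 264 listed peaks per Mb on arms and 425 in centres, and every other library also listed fewer per Mb on its arms. Recovered CLIP totals were between 0.192 M reads with no transgene and 1.73 M in C130Y replicate 2, with 0.544 and 0.893 M in the ∆RRM libraries, so list lengths were set against very different depths.

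A peak was called enriched when the authors' log2 ratio of CLIP to input was at least 1 and their −log10 p-value at least 3. The (+) libraries had 144 and 138 enriched arm peaks, C130Y 255 and 210, ∆RRM 340 and 222, and the library with no transgene 151. As shares of the listed arm peaks these were 1.61% and 2.07% in (+), 3.67% and 2.20% in C130Y, 12.9% and 4.18% in ∆RRM, and 8.34% with no transgene. Over all peaks of each list the shares were 1.86% and 2.55% in (+), 4.44% and 2.64% in C130Y, 16% and 5.34% in ∆RRM, and 8.58% with no transgene. The arm share was the lower of these in all 7 libraries.

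Set against the centres of the same chromosomes, arm peaks had a lower enriched share in every library. The centre shares were 1.86% and 2.55% in (+), 4.89% and 2.67% in C130Y, 16.3% and 5.53% in ∆RRM, and 10.1% with no transgene. The log2 ratio of arm share to centre share was -0.32 ± 0.0783 (SD, n = 6 tagged libraries), or 0.799-fold, with single libraries between -0.41 and -0.20 and the library with no transgene at -0.28. All 6 tagged libraries lay below 0, which gave the smallest p that an exact two-sided sign-flip permutation of 6 libraries allows, 0.0313. Adjusted by Benjamini-Hochberg over the 5 arm-against-centre comparisons the permutation p was 0.0781, which does not pass 0.05. With only listed peaks of log2 above 0 and at least 20 reads kept, the log2 ratio was -0.15 (exact permutation p = 0.0625). The parts of these 2 restrictions in that value were not told apart. At a −log10 p-value minimum of 1.3 the log2 ratio was -0.22 (permutation p = 0.0313). The 6 libraries cover 3 forms, so the test asks whether the libraries share a direction and not whether 1 condition has it.

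**Figure D1:**
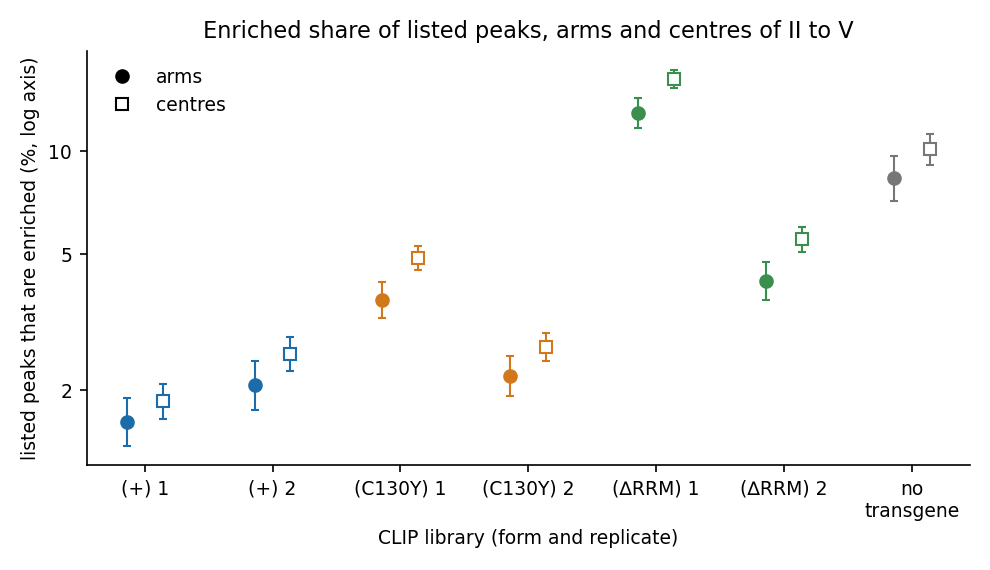
Percentage of listed peaks that were enriched (log axis) in each CLIP library, on the arms (filled circles) and in the centres (open squares) of II to V; bars are 95% Wilson intervals for counting error. The arm value lies below the centre value in all 7 libraries, from 1.61% against 1.86% in (+) replicate 1 to 12.9% against 16.3% in ∆RRM replicate 1.

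In (+) and C130Y the lower share was confined to peaks of moderate enrichment, and in ∆RRM and with no transgene it held for strong peaks too. Enriched peaks with a log2 below 3 made up 1.05% and 1.11% of listed arm peaks in (+), against 1.39% and 1.68% in the centres, and arm values were the lower in every library. Enriched peaks with a log2 of at least 3 made up 0.559% and 0.959% of listed arm peaks in (+), against 0.464% and 0.873% in the centres. In C130Y these strong peaks were 1.53% and 0.911% on arms against 1.49% and 0.808%. In ∆RRM they were 6.59% and 1.22% on arms against 7.88% and 1.297% in centres, and with no transgene 4.20% against 4.83%. With the log2 minimum at 3, the mean log2 ratio of arm to centre share changed sign, to 0.05, with an exact sign-flip permutation p of 0.562.

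Among enriched peaks, those on arms had the higher median log2 over input in every library. Median log2 of enriched arm peaks was 2.61 and 2.89 in (+), 2.71 and 2.65 in C130Y, 3.06 and 2.36 in ∆RRM, and 3.01 with no transgene. In the centres it was 2.18 and 2.57 in (+), 2.26 and 2.35 in C130Y, 2.97 and 2.27 in ∆RRM, and 2.89 with no transgene. The arm median was the higher in 6 of 6 tagged libraries, by 0.28 ± 0.158 on the log2 scale (SD, n = 6, exact sign-flip permutation p = 0.0313, the smallest possible, adjusted 0.0781). The size of the difference depended on the settings, at 0.12 with a −log10 p-value minimum of 1.3, 0.42 with 5, 0.72 on II alone, 0.15 on V alone and 0.16 on left arms. Within libraries the difference was 0.42 and 0.32 in (+), 0.44 and 0.30 in C130Y, 0.08 and 0.09 in ∆RRM, and 0.12 with no transgene. The 4 values of (+) and C130Y lay above those of ∆RRM and of the library with no transgene, a split between forms that was not tested.

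The upper end of the distribution showed the same order. Among enriched peaks of (+), 18.1% and 27.5% on arms had a log2 of at least 4, against 5.30% and 8.09% in centres. In C130Y the shares were 27.1% and 23.8% against 14.96% and 11.3%. In ∆RRM they were 19.4% and 11.3% against 19.6% and 5.58%, and with no transgene 15.9% against 19.9%. The arm share was the higher in both (+) and both C130Y libraries and in ∆RRM replicate 2, but not in ∆RRM replicate 1 or with no transgene. These strong arm peaks were not all separate places: joined within 5 kb, the 26 and 38 of (+) formed 14 and 17 loci, while the 14 and 22 of the centres formed 10 and 15. In C130Y there were 42 and 28 arm loci against 60 and 32 in centres, in ∆RRM 53 and 20 against 120 and 24, and with no transgene 17 against 46.

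**Figure D2:**
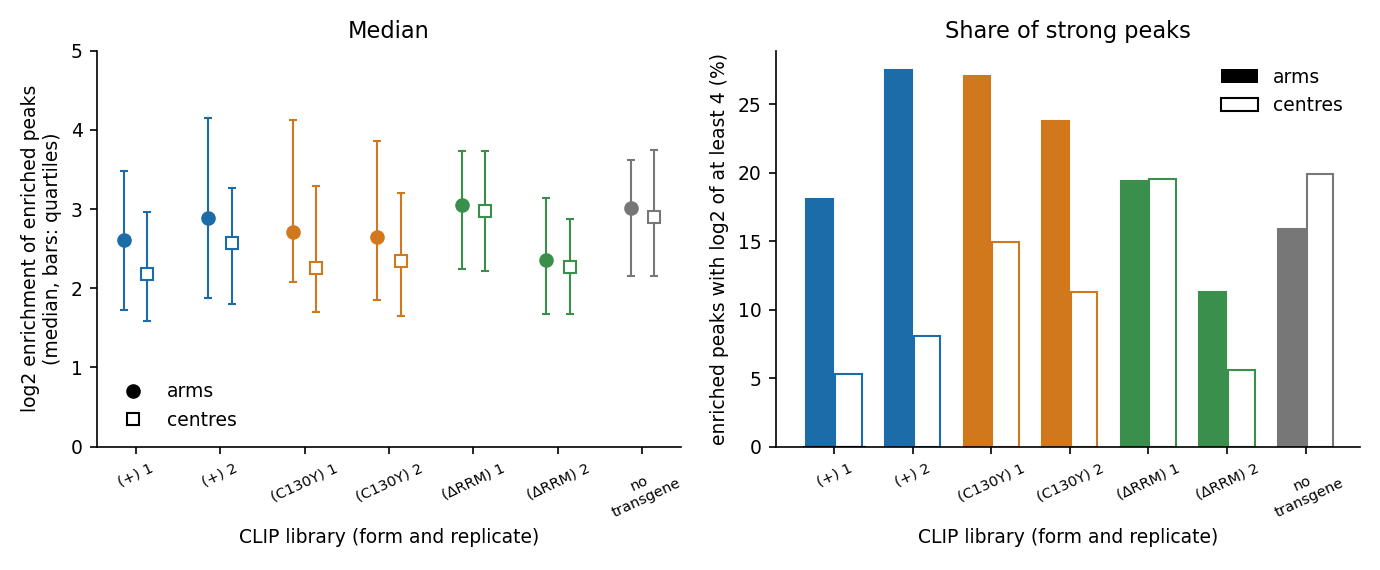
Left, median log2 enrichment of enriched peaks per library with quartiles as bars, arms filled and centres open; right, percentage of enriched peaks with a log2 of at least 4. Arm medians lie above centre medians in all 7 libraries, and the share of strong peaks on arms is 18.1% and 27.5% in the (+) libraries against 5.30% and 8.09% in the centres.

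Input reads at the peaks moved with this difference. The median enriched arm peak of (+) rested on 112 and 91.5 CLIP reads over 11 and 6 input reads, and the median centre peak on 93 and 101 over 16 and 14. In C130Y the arm medians were 37 and 73 CLIP reads over 13 and 11.5 input reads, and the centre medians 47 and 128 over 27.5 and 27. In ∆RRM input medians were 7 and 12 reads on arms and 7 and 11 in centres, and with no transgene 9 and 9.5. Input reads were therefore fewer on arms in the 4 libraries where the log2 difference was larger, and slightly fewer with no transgene. The log2 is itself CLIP over input, so these reads are not a measure separate from it. Their part in the difference was not tested. These read numbers were recovered from the deposited values, and those of peaks at the cap of the −log10 p-value, between 6 and 43 enriched arm peaks per library, are lower bounds.

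After adjustment, no test separated arm from centre peaks in the remaining measures either. The median log2 of all listed peaks differed by -0.06 ± 0.0794 (SD, n = 6, exact sign-flip permutation p = 0.25, adjusted 0.417). Median length of enriched peaks gave a log2 ratio of -0.00 ± 0.0650 (permutation p = 1), with arm medians between 27 and 51 nt in the tagged libraries. Median recovered reads per listed peak of log2 above 0 gave a log2 ratio of -0.07 ± 0.108 (permutation p = 0.5, adjusted 0.625). Enriched arm peaks lay on both strands, with 47.8% to 55.2% on the plus strand in tagged libraries and 45.0% with no transgene.

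The 8 arms did not behave alike. The enriched share was below that of the same chromosome's centre in 36 of 48 pairs of arm and tagged library. Both arms of V and the left arm of II were below in 6 of 6 tagged libraries, and the right arm of II and both arms of III in 5 of 6. Chromosome IV was the exception, with its left arm below its centre in 1 of 6 and its right arm in 2 of 6. Taken alone, IV gave a mean log2 ratio of arm to centre share of 0.20 (exact sign-flip permutation p = 0.188, unadjusted), against -0.36 for II, -0.29 for III and -0.86 for V.

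On the left arm of IV, enriched shares were 1.67% and 2.27% in (+), 4.59% and 2.95% in C130Y, 14.98% and 4.71% in ∆RRM and 5.77% with no transgene. The centre of IV had 1.69% and 1.92% in (+), 3.89% and 2.32% in C130Y, 14.6% and 4.47% in ∆RRM and 10.3% with no transgene. There, 5 of 6 tagged libraries were above their centre and (+) replicate 1 just below, while the library with no transgene was below it. On the right arm of V the shares were 1.22% and 1.96% in (+), 3.59% and 1.75% in C130Y, 6% and 2.82% in ∆RRM and 8.97% with no transgene, against 2.45% and 3.57%, 6.83% and 3.60%, 19.9% and 6.89%, and 9.91% in the centre of V. That arm also held the fewest enriched peaks of the 8 over all lists, 89, and the left arm of IV the most, 250.

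The left arm of V was the arm on which ∆RRM stood furthest apart in number. Its enriched peaks numbered 22 and 16 in (+), 25 and 17 in C130Y, 68 and 38 in ∆RRM, and 30 with no transgene. Both ∆RRM libraries exceeded the other 5, and the library with no transgene, the shallowest, exceeded (+) and C130Y. The right arm of V had 9 and 10 in (+), 19 and 14 in C130Y, 12 and 12 in ∆RRM and 13 with no transgene, where ∆RRM lay below C130Y. Median log2 of enriched peaks exceeded that of the same chromosome's centre in 37 of 48 pairs, in 6 of 6 libraries on the right arm of II, both arms of III and the right arm of V, and in 2 of 6 on the left arm of V.

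**Figure D3:**
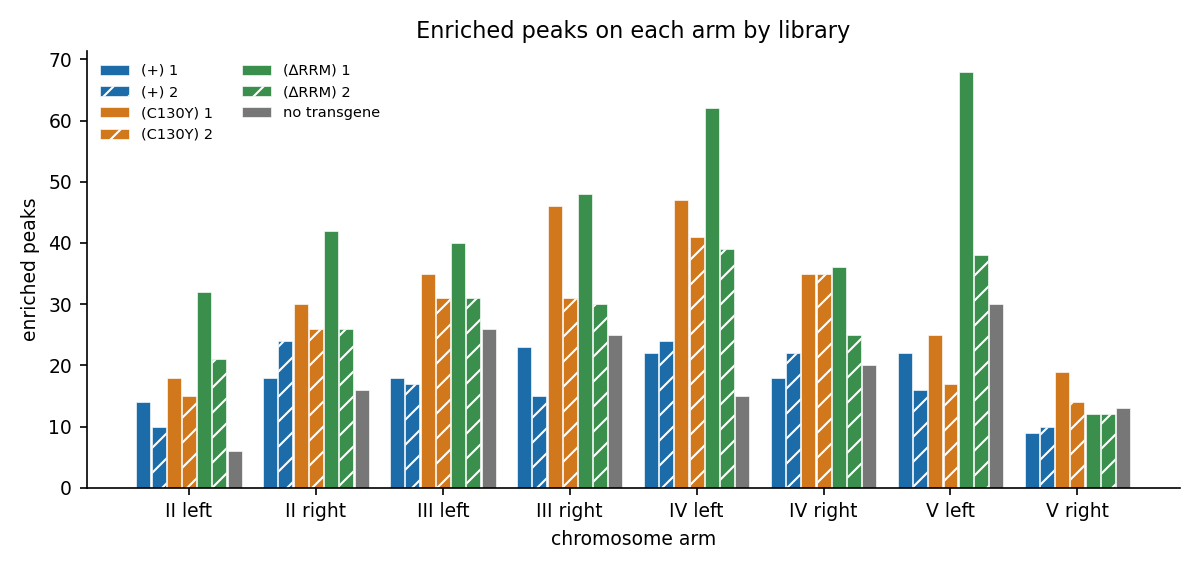
Number of enriched peaks on each arm of II to V in each CLIP library; hatched bars are replicate 2, and grey is the library with no transgene. ∆RRM replicate 1 is the highest on 7 of the 8 arms, with 68 on the left arm of V, and on the right arm of V it has 12 where C130Y replicate 1 has 19.

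Distance from the border was followed in steps of 1 Mb, with each library's enriched share divided by its share over II to V as a whole. Averaged over the 6 tagged libraries, the relative share was 1.08 in the first Mb of the centre and 1.13 in the second, with the third at 0.837. On the arm side it was 0.935 in the first Mb from the border, 0.985 in the second, 0.904 in the third and 0.657 in the step from 3 to 4 Mb. In that step, the furthest one followed, single libraries lay between 0.546 and 0.711, below their values in every arm step nearer the border. Arms spanned from 3.25 Mb, the right arm of II, to 5.89 Mb, the left arm of V. The arms therefore filled this step unequally and some ran beyond it, and the part of this in the lower share was not tested. The first Mb of arm ranged from 0.804 to 1.23, with (+) replicate 1 the highest, so there was no common step at the border itself. The third Mb of the centre ranged from 0.751 to 0.990.

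**Figure D4:**
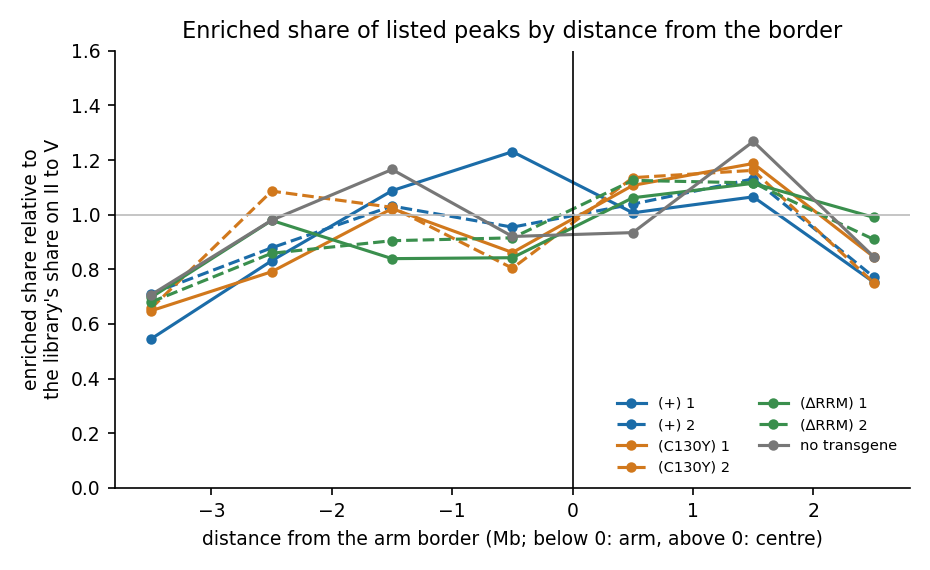
Enriched share of listed peaks relative to the library's share over II to V, in steps of 1 Mb from the border, with arms below 0 and centres above 0; 1 line per CLIP library, replicate 2 dashed. All 6 tagged libraries lie between 0.546 and 0.711 in the step 3 to 4 Mb out on the arms, and between 1.01 and 1.14 in the first Mb of the centre.

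The forms differed in how many enriched arm peaks they gave. (+) had 141 ± 4.24, C130Y 232.5 ± 31.8 and ∆RRM 281 ± 83.4 (SD, n = 2 libraries each). On the log2 scale C130Y exceeded (+) by 0.72, or 1.64-fold, and ∆RRM exceeded (+) by 0.96, or 1.95-fold. In both comparisons the libraries did not overlap, yet with 2 against 2 the exact two-sided permutation p cannot go below 0.333, the value found in both (adjusted 0.556). ∆RRM against C130Y gave 0.25 (exact permutation p = 0.667), with overlapping libraries. Over the whole lists the same comparisons gave 1.65-fold and 2.2-fold, and in the centres 1.76-fold and 2.41-fold, with the forms in the same order. The ∆RRM value over (+) was 0.50 with at least 20 reads, 0.54 at a −log10 p-value minimum of 5 and 1.62 at 1.3, and the C130Y value was 1.19 at 1.3, 0.43 on II alone and 0.38 on V alone. The CLIP totals of ∆RRM were the smallest of the tagged forms, and 1 CLIP read over 1 input read stood at a log2 of 1.51 and 0.55 in ∆RRM, 1.32 and -0.05 in C130Y and -0.58 and -0.29 in (+). The part of depth in these numbers was not tested.

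Of all enriched peaks on II to V, the arms held 34.5% ± 1.16 in (+), 32.9% ± 1.61 in C130Y and 29.8% ± 0.104 in ∆RRM (SD, n = 2 each). The difference, ∆RRM minus (+), was -4.63 points, with no overlap of libraries (exact permutation p = 0.333). It was -9.14 at a log2 minimum of 3, -2.96 at a −log10 p-value minimum of 1.3, -8.53 on III, -7.64 on IV, 0.30 on V and -1.06 on left arms. C130Y minus (+) was -1.58 points (permutation p = 0.667). The arm share of listed peaks moved the same way, at 38.6% ± 0.0493 in (+), 38.4% ± 0.215 in C130Y and 35.4% ± 0.915 in ∆RRM.

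Merging enriched peaks of all 7 lists that overlapped by at least 1 nt on a strand gave 2738 regions, of which 588 lay on the arms and 1264 in the centres. Arm regions had a median length of 58 nt, 299 lay on the plus strand, and within 5 kb of one another they formed 340 loci, 215 of them a single region. Of the 588, 342 were enriched in 1 library only, or 58.2% against 57.8% in the centres. Enrichment in all 7 held for 16, or 2.72% against 2.22% in the centres. Reproducible means enriched in both libraries of a form. That held for 57 arm regions in (+), or 9.69% of them, against 9.39% of all regions. It held for 99 in C130Y, or 16.8%, against 16.8% of all, and for 130 in ∆RRM, or 22.1%, against 25.1% of all. Of arm regions enriched in either library of a form, 46.0% were reproducible in (+), 41.4% in C130Y and 35.8% in ∆RRM. In the centres these shares were 38.6%, 41.5% and 35.1%. The median difference between replicates at reproducible arm regions was 0.65, 0.52 and 1.04 on the log2 scale, against 0.41, 0.33 and 1.01 in the centres.

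All 3 tagged forms shared 27 reproducible arm regions, 4.59% of arm regions against 4.97% of all. Over these 27, median log2 was 3.47 and 4.08 in (+), 3.66 and 3.64 in C130Y, 3.32 and 2.33 in ∆RRM. The library with no transgene was also enriched at 16 of them, with a listed peak below the thresholds at 5 and none at 6. The 11 without enrichment there were 1.87% of arm regions, against 2.59% of all. A log2 value is relative to the library's own input and was computed list by list, so values given side by side for a region are a description and were not tested.

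Of the 6 shared regions named for the highest minimum over the tagged libraries, 3 lay on the right arm of II. The first was at 14641240 to 14641298 on II, minus strand, with log2 values of 5.81 and 5.70 in (+), 4.80 and 4.74 in C130Y, 5.59 and 5.21 in ∆RRM, and 2.92 with no transgene. In (+) it rested on 587 CLIP reads over 7 input reads and on 127 over 2. A second lay nearby on the same strand, at 14635719 to 14635775, with 4.41 and 5.24 in (+), 4.89 and 5.24 in C130Y, 5.31 and 4.30 in ∆RRM, and 2.25 with no transgene. Both were enriched in all 7 libraries, with the library with no transgene the lowest in each.

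The other 4 had no listed peak with no transgene. Log2 values at 2639801 to 2639859 on IV, minus strand, were 5.42 and 5.11 for (+), 4.32 and 5.98 for C130Y, and 4.51 and 4.41 for ∆RRM. The region at 10812070 to 10812130 on III, minus strand, gave 3.97 and 5.11 for (+), 3.66 and 4.12 for C130Y, and 4.53 and 4.10 for ∆RRM. Another, at 18656100 to 18656140 on V, minus strand, gave 5.17 and 3.57 for (+), 5.56 and 3.95 for C130Y, and 5.90 and 5.36 for ∆RRM. The form without the RNA recognition motif lay below both (+) libraries on IV, between them on III and above them on V. The last, on II at 12922276 to 12922296, plus strand, ran from 2.71 in C130Y replicate 1 to 4.62 in (+) replicate 2. With 1 to 8 input reads behind each value of these 4 regions except that on III, single values are coarse.

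Most (+) regions were also reproducible in C130Y, and fewer were in ∆RRM. Of the 57 reproducible in (+), 43 were also reproducible in C130Y, 75.4% of the (+) regions against 75.5% over the genome, and 43.4% of the C130Y regions. With ∆RRM 34 were shared, 59.6% of the (+) regions against 61.9% over the genome, and 26.2% of the ∆RRM regions. At 6 there was no enriched C130Y peak, 10.5% against 12.1% over the genome. At 14 there was no enriched ∆RRM peak, 24.6% (95% Wilson interval 15.2% to 37.1%) against 17.5% over the genome and 14 of 97, or 14.4% (8.80% to 22.8%), in the centres. These intervals overlap.

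The 14 regions of (+) absent from ∆RRM held a listed ∆RRM peak of log2 above 0 at 10 places, of at least 1 at 9, and none of any kind at 3. C130Y was enriched in at least 1 library at 10 of the 14, and no share over the genome was computed for this count. The named region with the strongest (+) values was at 5226671 to 5226697 on V, plus strand, where (+) had 5.56 and 3.94 and C130Y 4.90 and 2.41, and the ∆RRM lists had no peak. With no transgene it had 5.16, from 16 CLIP reads over 1 input read, and was enriched.

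A pair of regions on the right arm of III, both minus strand, lay within 5 kb of each other. At 11393041 to 11393153 (+) had 3.74 and 4.47, C130Y 4.49 and 4.28, and ∆RRM 3.51 and 2.88. At 11389587 to 11389691 (+) had 2.86 and 3.27, C130Y 2.44 and 3.37, and ∆RRM 2.10 and 1.14. The ∆RRM peaks at both places rested on 3 to 5 CLIP reads and missed the −log10 p-value minimum, and the part of depth in this was not tested. The region at 13523795 to 13523821 on III, minus strand, was of the same kind: (+) had 4.42 and 3.49, C130Y 4.12 and 4.04, and ∆RRM 3.51 and 2.14 from 4 and 6 CLIP reads. At 14122029 to 14122077 on II, minus strand, (+) had 2.69 and 3.24 and C130Y 4.12 and 3.28, and neither ∆RRM nor the library with no transgene listed a peak.

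A wide gap between (+) and ∆RRM that did not rest on few reads was seen at a region outside the naming rule, chosen after its values were seen. It lay at 17119977 to 17120046 on V, plus strand, and was enriched in all 7 libraries. Its log2 was 5.86 and 6.54 in (+), 5.52 and 5.11 in C130Y, 2.42 and 2.43 in ∆RRM, and 3.38 with no transgene. CLIP reads over input reads were at least 952 over 11 and 1249 over 11 in (+), and 73 over 39 and 132 over 36 in ∆RRM. The (+) and C130Y values lay above 5 and those of ∆RRM below 2.5, under the library with no transgene. A second such region, also chosen after its values were seen, was at 17428885 to 17428907 on V, plus strand, with 4.00 and 2.17 in (+), 3.04 and 2.85 in C130Y, 0.66 with no transgene and no listed ∆RRM peak. It rested on 648 and 472 CLIP reads in (+).

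The 6 regions of (+) absent from C130Y were weak. All 6 had a listed C130Y peak of log2 above 0, and 4 had one of at least 1. The strongest, at 3715863 to 3715947 on V, minus strand, gave 2.67 and 3.41 for (+) and 2.90 and 3.41 for C130Y, where 6 and 11 CLIP reads did not reach the p-value minimum. At 13626366 to 13626408 on III, minus strand, (+) had 2.48 and 3.26 and C130Y 1.44 and 1.12. At 18412447 to 18412492 on V, minus strand, (+) had 2.23 and 2.94 and C130Y 2.09 and 0.24. The other 3 had a (+) value below 2 in at least 1 library. They lay at 15235403 to 15235431 and 13317219 to 13317304 on IV, plus strand, and 16595195 to 16595313 on V, minus strand. The last 2 of these were enriched in both ∆RRM libraries, at 2.76 and 2.76, and at 2.30 and 1.14.

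C130Y had more reproducible regions without an enriched (+) peak than (+) had without C130Y. Of its 99 reproducible arm regions, 41 had no enriched peak in (+), 41.4% against 34.3% over the genome and 39.4% in the centres. Of the 41, 32 had a listed (+) peak of log2 above 0, 20 had one of at least 1, and 7 had no listed (+) peak. At 15 of the 41 a ∆RRM library was enriched, and at 5 the library with no transgene was. Shares over the genome were not computed for these counts. Regions of C130Y with no enriched ∆RRM peak also numbered 41, or 41.4% (95% Wilson interval 32.2% to 51.3%), against 50 of 198 in the centres, or 25.3% (19.7% to 31.7%), and 27.8% over the genome. The arm and centre intervals do not overlap, but regions are not replicates and no test over libraries was made of this difference. Depth goes beside it: the ∆RRM libraries listed 77.4 and 157 peaks per Mb on arms against 147 and 281 in centres. Median recovered reads per listed peak of log2 above 0 were 8 and 7 in both, and the part of depth in the difference was not tested.

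**Figure D5:**
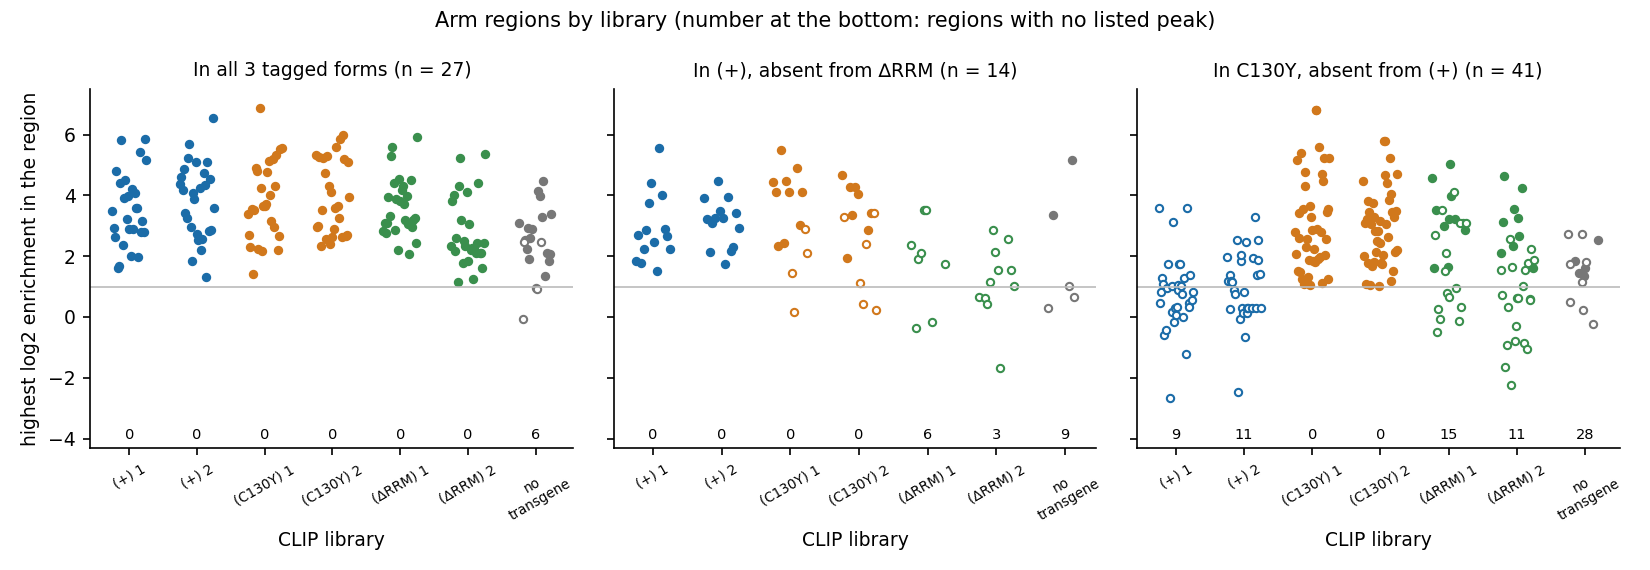
Highest log2 enrichment in each library at arm regions that were reproducible in all 3 tagged forms (27), in (+) and absent from ∆RRM (14), and in C130Y and absent from (+) (41); filled points are enriched, open points are listed peaks below the thresholds, and the number at the bottom counts regions with no listed peak. At the 27 shared regions all tagged libraries lie above 1, with ∆RRM replicate 2 lowest by median, and 6 regions have no listed peak with no transgene.

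The C130Y region with the highest values was at 2603680 to 2603702 on IV, plus strand, listed as abutting pieces with the same values. It had 6.82 and 5.80 in C130Y, from 181 CLIP reads over 4 input reads and 115 over 2, against 1.74 and 0.30 in (+) from 5 and 3 CLIP reads. Neither the ∆RRM lists nor the list with no transgene had a peak there. The C130Y values were the highest listed there in both replicates. The named regions of this set were chosen for high C130Y values and no enriched (+) peak, so the lead over (+) follows from the choice. At 18659572 to 18659609 on V, minus strand, C130Y had 5.22 and 4.71, (+) 0.83 and 0.30, and ∆RRM 3.10 and 1.88 from 3 and 5 CLIP reads.

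Of the named C130Y regions, 2 lay at the edge of regions enriched in all 7 libraries. On IV, minus strand, 624159 to 624165 was listed in C130Y alone, at 4.69 and 5.24. It abutted 624108 to 624158, which was enriched in all 7 libraries, with 3.59 and 4.35 in (+), 5.18 and 5.86 in C130Y, 3.06 and 2.12 in ∆RRM and 4.48 with no transgene. On IV, plus strand, 13709353 to 13709389 was listed in C130Y alone, at 5.59 and 4.42. It lay just past the end of 13709271 to 13709315, where (+) had 3.57 and 4.75, C130Y 3.17 and 3.26, ∆RRM 3.97 and 2.23, and the library with no transgene 3.30. At both places enrichment was common to all libraries, and the C130Y lists had a further peak beside it.

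On the left arm of III a short plus-strand locus, 1917325 to 1917908, held 5 regions, all 5 reproducible in C130Y, 1 in (+) and 0 in ∆RRM. Its first region, 1917325 to 1917362, had 3.12 and 5.47 in (+), 3.40 and 4.39 in C130Y, 1.93 and 3.25 in ∆RRM and 3.33 with no transgene. Its last, 1917875 to 1917908, had 2.12 and 3.71 in (+), 5.71 and 4.03 in C130Y, 3.10 in ∆RRM replicate 1 and no other listed peak. At 1917424 to 1917450 C130Y had 4.32 and 3.76, (+) replicate 1 had 1.74 from 5 CLIP reads, and no other list had a peak. C130Y was the highest form at the latter 2 regions, on 14 to 84 CLIP reads per library. The region at 1917424 was named for high C130Y values and no enriched (+) peak, so its lead over (+) follows from the choice. On IV, 1462880 to 1462935, minus strand, had 4.49 and 4.04 in C130Y but also 3.59 and 3.30 in (+), below the p-value minimum.

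∆RRM had the largest set without (+), 79 of its 130 reproducible arm regions, or 60.8%, against 59.8% over the genome and 65.4% in the centres. At 68 of the 79 a (+) library listed a peak of log2 above 0, at 34 of at least 1, and at 7 neither listed a peak. A C130Y library was enriched at 23 of the 79. The library with no transgene was enriched at 2 of the 79, against 20 of all 130. Leaving out regions with an enriched (+) peak can itself lower that count. No share over the genome was computed for it or for the 23 with C130Y. Median log2 over the 79 was 3.19 and 2.06 in ∆RRM. Where a peak was listed it was 0.85 and 1.25 in C130Y, over 68 regions in each library, and 0.55 and 0.84 in (+), over 71 and 64, where the choice of the set keeps it low.

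The named region that no other form listed was at 4434896 to 4434933 on V, minus strand, with 3.42 and 3.78 in ∆RRM from 15 CLIP reads over 4 input reads and 28 over 3. At 13073822 to 13073913 on III, plus strand, ∆RRM had 4.97 and 3.88, (+) 0.23 and 1.71, and C130Y 1.83 and 2.54. At 2243494 to 2243526 on II, plus strand, ∆RRM had 5.76 and 3.36, (+) 0.42 and 1.91, and C130Y 1.15 and 1.69. Where (+) and C130Y listed a peak in these, the ∆RRM values were above theirs. The regions were chosen for high ∆RRM values and no enriched (+) peak, so the lead over (+) follows from the choice. At 13073822 the ∆RRM values rested on 11 and 10 CLIP reads over 1 input read each. At 15197514 to 15197584 on II, plus strand, C130Y was enriched as well, at 3.43 and 3.81 against 3.51 and 4.64 in ∆RRM and 1.10 and 1.17 in (+). On IV, 15039366 to 15039435, plus strand, had 5.21 and 3.31 in ∆RRM, and 2314748 to 2314791, minus strand, 4.10 and 3.29. The input counts there were 1 to 4 reads, so these ratios rest on few input reads.

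Enrichment with no transgene reached many of the same places. The library with no transgene was enriched at 24 of the 57 reproducible (+) arm regions, or 42.1% against 34.2% over the genome, at 30 of the 99 of C130Y, or 30.3% against 29.3%, and at 20 of the 130 of ∆RRM, or 15.4% against 11.1%. In the centres the shares were 40.2%, 31.3% and 10.3%. It had the smallest CLIP total, so absence there is the weaker statement.

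A further 75 arm regions, 12.8% against 10.4% of all regions, were enriched with no transgene and in no tagged library. The strongest was at 11436934 to 11437009 on III, minus strand, at 6.29 from 35 CLIP reads over 1 input read, against 0.16 and 1.299 in (+) and no listed peak in C130Y or ∆RRM. At 4826185 to 4826197 on V, minus strand, it had 6.01, with 0.19 and 0.13 in (+) and 1.02 and 1.69 in C130Y. At 17088260 to 17088277 on IV, plus strand, it had 5.62, and at 19643132 to 19643138 on V, minus strand, 5.43. These 4 were chosen for high values in that library and no enrichment in tagged ones, so its lead there follows from the choice. The values at 4826185 and 17088260 also rested on 29 and 22 CLIP reads over 1 input read.

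The arm locus with the most regions spanned 4647789 to 4653940 on V and held 10 regions, all on the minus strand. The library with no transgene was enriched at 6 of them, ∆RRM replicate 1 at 5, ∆RRM replicate 2 and (+) replicate 1 at 1 each, and the C130Y libraries and (+) replicate 2 at 0. The 6 regions of the library with no transgene filled 4647789 to 4648035 and had log2 values of 1.56 to 2.83, while ∆RRM reached 2.20 and 1.72 at the far end, 4653867 to 4653940. Only that last region was reproducible in a tagged form. Over all arms, 15 loci held at least 5 regions and together took in 95 of the 588.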

How the data were processed

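The authors deposited 1 peak list per CLIP library, called per library as the lists show, each peak with a log2 ratio of CLIP to input and a −log10 p-value, both the authors' own. Build ce10, cutadapt 1.9.1, STAR 2.4.0i and SAMtools 1.4.1 are named in the submitters' processing notes, and no source used here gives the peak caller. The deposited −log10 p-values have a cap of 400 and are 0 where log2 is below 0. Peaks were filtered and ranked inside each list, sets of regions were compared by overlap, arm and centre values were differenced within a list before the differences were tested over libraries, and log2 values of a region set side by side across libraries, with the replicate differences and correlations made from them, are description only.

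Read numbers were recovered by finding the whole CLIP and input reads whose ratio and p-value (Fisher's exact test where an observed or expected number was below 5, otherwise Yates-corrected chi-square) gave the deposited values within 0.001 or 0.05%. This met 94.3% to 99.2% of peaks with a p-value above 0 per library. At the cap they are lower bounds. Recovery, merging and the share comparison were tested on simulated data. Intervals are 95% Wilson intervals and cover counting error only.

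Regions named were, per set of regions, the 6 with the highest lower log2 in the form or forms that define it (the highest minimum over 6 libraries for shared regions), the 4 highest with no transgene only, and the locus with most regions. The members, the rule and the sets were chosen with earlier results of these data known. Genome and annotation of ce10 were not used here, so no gene or sequence is given. Arm-against-centre comparisons used exact sign-flip permutations over 6 libraries, comparisons between forms exact label permutations, and each family of 5 was adjusted by Benjamini-Hochberg. Alternatives were other thresholds, joined abutting pieces, at least 20 reads at peaks of log2 above 0, shifted borders, a 50% overlap and left-out libraries. Chosen after seeing the data were single chromosomes, one side only and no library without a transgene. Python 3.11.15, numpy 2.4.6, pandas 2.3.3, SciPy 1.17.1 and matplotlib 3.10.9 were used.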

Additional observations from a re-analysis of the deposited data

How the results depend on the processing

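Of 519 values under other settings, 429 were labelled the same, 32 of 175 checks of named regions left their set, 39 counts moved and 19 differences changed direction. For a tested difference the same meant an unchanged direction and adjusted call, whatever its size. No adjusted p passed 0.05 in the main run, so that call had little room to change. For a count it meant a number within a set fold of the main one, and for a named region staying in its set. That fold was wide: 189 reproducible ∆RRM regions, without ∆RRM replicate 1, were labelled the same as 130. Comparisons with replicate as a block were the same by construction. The causes were not tested except where fewer samples or peaks were used. The arm-to-centre share of enriched peaks turned to 0.0453 at a log2 minimum of 3 and to 0.20 on chromosome IV alone. It was -0.15 with at least 20 reads at peaks of log2 above 0, -0.22 at a −log10 p minimum of 1.3 and -0.86 on V. With 1 tagged library left out it lay between -0.35 and -0.30, where the exact permutation p cannot go below 0.0625. The median log2 of enriched arm peaks stayed above that of centre peaks under every setting run, from 0.12 at a −log10 p minimum of 1.3 to 0.72 on II alone, and at 0.24 to 0.31 when a library was left out. The length ratio, -0.00 in the main run, was -0.15 at a log2 minimum of 3 (exact sign-flip permutation p = 0.0938, adjusted 0.234). It turned to 0.0198 at a −log10 p minimum of 5, 0.0608 at 1.3 and 0.0431 with abutting pieces joined. It was also above 0 on II (0.0104), on V (0.0893) and on left arms (0.0255). With a library left out it ranged from -0.0165 to 0.0219. Reads per listed peak of log2 above 0 turned to 0.0512 on IV.

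∆RRM over (+) ran from 0.50 with at least 20 reads to 1.62 at a −log10 p minimum of 1.3, C130Y over (+) from 0.38 on V to 1.19 at 1.3, and ∆RRM minus (+) in arm share reached -9.14 points at a log2 minimum of 3. ∆RRM over C130Y turned to -0.0389 at a −log10 p minimum of 5, -0.0411 with at least 20 reads and -0.0513 on right arms, and ranged from -0.0599, without ∆RRM replicate 1, to 0.56. C130Y minus (+) in arm share turned to 0.0199 points at a −log10 p minimum of 1.3, 0.31 with borders 0.5 Mb towards the ends, 0.83 on III and 0.44 on IV, and ∆RRM minus (+) turned to 0.30 on V. Same-numbered libraries were not labelled as pairs, and their deviations from the form mean over 295 arm regions correlated at 0.15, -0.19 and 0.04. With the replicate number as a block the values were those of the unpaired comparisons (0.72, 0.96, 0.25, -4.63 and -1.58), and 2 pairs allow no p below 0.5.

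Counts of reproducible arm regions in (+), C130Y, ∆RRM, all 3 forms, (+) without ∆RRM, (+) without C130Y, C130Y without (+) and ∆RRM without (+) were 21, 44, 24, 5, 7, 3, 19 and 15 at a log2 minimum of 3, and 94, 189, 296, 42, 22, 10, 77 and 178 at a −log10 p minimum of 1.3. At a −log10 p minimum of 5, ∆RRM had 72 and ∆RRM without (+) 45. With a library left out, the same counts ran from 57 to 93 in (+), 99 to 188 in C130Y, 130 to 304 in ∆RRM, 14 to 36 for (+) without ∆RRM, 6 to 22 for (+) without C130Y, 41 to 112 for C130Y without (+) and 79 to 230 for ∆RRM without (+), since a form left with 1 library needs no second call. The count shared by all 3 forms and absent with no transgene was 11 to 15 with a tagged library left out, and 27 without the no-transgene library, where the absence condition drops out. It was 5 at a log2 minimum of 3 and 22 at a −log10 p minimum of 1.3.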

Other observations

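Among the 16 arm regions enriched in all 7 libraries, some were higher in C130Y than in the other forms; those given here were chosen after their values were seen, and no test was made. At 14764817 to 14764942 on IV, minus strand, log2 was 5.32 and 5.19 in C130Y, 2.79 and 2.84 in (+), 2.97 and 2.12 in ∆RRM, and 2.09 with no transgene. At 13601650 to 13601688 on IV, plus strand, C130Y had 5.14 and 5.60, (+) 2.91 and 2.20, ∆RRM 3.71 and 2.28, and the library with no transgene 3.96. At 11090918 to 11091020 on III, plus strand, C130Y had 6.89 and 5.28, (+) 3.93 and 1.85, ∆RRM 2.86 and 1.77, and the library with no transgene 2.59. C130Y was above the other 5 libraries at all 3 places. At 1419660 to 1419709 on III, plus strand, ∆RRM was the highest instead and had 4.40 and 3.20, (+) 2.36 and 2.96, C130Y 2.24 and 2.56, and the library with no transgene 1.89.

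Some arm loci were mainly of ∆RRM. On the left arm of III, 834301 to 835585 held 8 regions on the plus strand, enriched at 6 and 4 of them in ∆RRM, 1 and 1 in (+), 0 and 3 in C130Y and 0 with no transgene. On the left arm of IV, 2313870 to 2315957 held 7 regions on the minus strand, at 6 and 3 in ∆RRM, 2 and 1 in C130Y, and 0 in (+) and with no transgene. These loci were also chosen after their values were seen.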
